A study of Mus musculus with 20 samples.

Results

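Conventional dendritic cells (cDC) were set against plasmacytoid dendritic cells (pDC) on 4 of the 20 arrays of a study of dendritic cell development from mouse bone marrow. The 2 cDC arrays and the 2 pDC arrays were chosen by their labels alone. The remaining arrays hold multipotent progenitors (MPP), common dendritic cell progenitors (CDP) left untreated or given TGF-β1, and CDP taken from mice. Messenger RNA was measured on Affymetrix mouse arrays, and the tested quantity was the difference in log2 level, cDC minus pDC, for each gene.

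The cDC were differentiated from amplified progenitors of C57BL/6 bone marrow. The pDC came from amplified progenitors of the same strain and tissue, and no allele, drug or TGF-β1 treatment is named for either group. Both populations are therefore products of culture rather than cells taken from a tissue. The labels name no cytokines, culture days or sorting gates. Total RNA was extracted on columns with a DNase step, and 1 µg per array was labelled with the one-cycle kit. The 2 MPP and 2 CDP arrays labelled with that kit entered the same fit, so that 8 arrays shared one estimate of the spread. Nothing in the labels says that the 2 arrays of a group come from separate cultures, so a p-value here measures only the spread between these arrays, which may be technical. An array of a bulk population cannot tell fewer cells of a type from less RNA per cell.

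Both kinds of dendritic cell descend from a shared progenitor that responds to FLT3 ligand. Conventional dendritic cells take up antigen, migrate to lymph nodes through CCR7 and prime T cells with peptide on MHC molecules, costimulatory ligands and cytokines such as IL-12. Plasmacytoid dendritic cells are round, secretory cells that sense viral nucleic acid in endosomes through TLR7 and TLR9 and release type I interferon, and they carry genes otherwise typical of lymphocytes. The E protein TCF4 holds the plasmacytoid state and is opposed by ID2, which is high in conventional cells.

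The 4 arrays were of like quality, with values at the platform's lowest level for 34.1% to 35.0% of probe sets and an actin 3′ over 5′ difference of 0.69 and 0.84 in cDC and 0.84 and 0.94 in pDC on the log2 scale. On the other arrays of the fit that actin difference was larger, with 1.91 and 2.04 in MPP and 1.23 and 2.11 in CDP. Within cDC and within pDC, however, the 2 arrays differed by whole programmes. Of 36 interferon-stimulated genes tested, replicate 1 stood more than 1 log2 unit above replicate 2 for 29 in cDC and for 27 in pDC, and for 25 in both. The median gap was 2.48 in cDC and 2.41 in pDC. Glycolysis genes ran the other way, with replicate 2 higher by more than 1 for 7 of 22 in cDC and 13 of 22 in pDC. Markers of monocytes and macrophages were higher by more than 1 on replicate 2 for 3 of 11 in cDC and 6 of 11 in pDC. Results that rest on these genes are given below with each array's value.

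Gene by gene, the subsets differed widely. Of 8900 genes tested with limma at an adjusted p under 0.05, 2273 were called (25.5%), of which 1142 were higher in cDC (12.8% of those tested) and 1131 lower (12.7%). A gene was tested where its value was above 5 on at least 2 of the 8 arrays, and the median difference over the tested genes was -0.0022. At least 2-fold, 868 genes were higher and 789 lower in cDC. At least 4-fold, the counts were 428 higher and 335 lower. Differences of 6 or more log2 units were reached by 27 genes that were higher and 16 that were lower. In 279 of the genes called higher, both pDC arrays lay under 5, and in 192 of those called lower, both cDC arrays did. For such genes the fold is given against a level of 5 as "at least". Through the 2 cDC arrays alone, 91 of the genes called higher passed the filter, and through the 2 pDC arrays alone 106 of those called lower did. The filter fixed the direction of these genes, so their p-values are no evidence for it. Counts in the gene lists below are to be read against the shares of all genes tested. The number called fell to 1343 without cDC replicate 1, to 1474 without cDC replicate 2 and to 1262 without pDC replicate 1, and was 1600 without pDC replicate 2. With no filter on low values 1483 genes were called, and 81 of the 251 called genes described here lost their call.

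**Figure D1:**
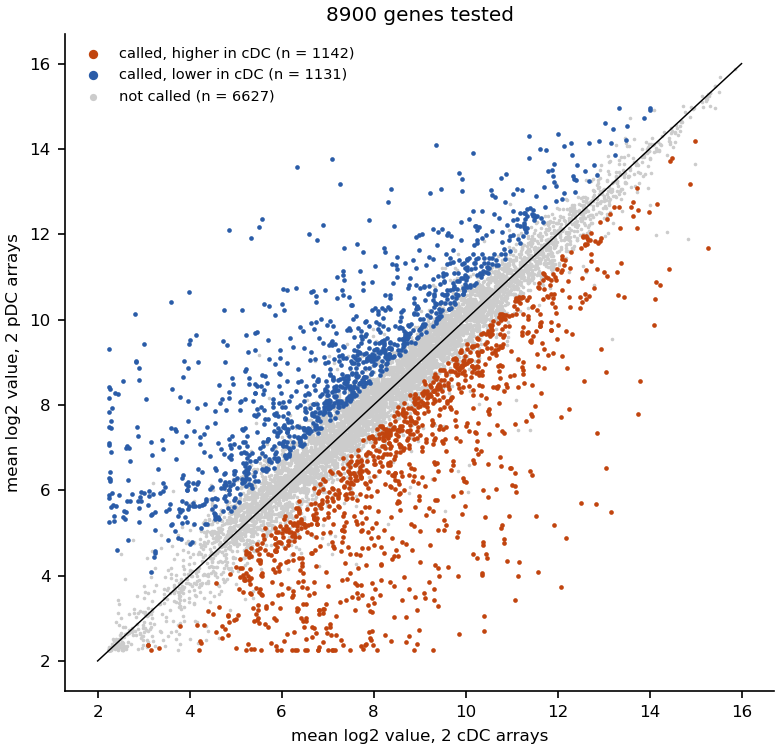
Mean log2 value of the 2 cDC arrays (horizontal axis) against that of the 2 pDC arrays (vertical axis) for the 8900 genes tested, 1 point per gene. The 1142 genes called higher in cDC lie below the line of equal level, the 1131 called lower lie above it, and genes not called are grey.

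The 6 promoters below belong to the genes with the largest differences in each direction that have an entry in RefSeq's table (mouse build GRCm38.p6, 250 bases before to 50 bases after the start, standard markers included). Capitals mark a match, on either strand, to the E-box CAGGTG, a motif read by E proteins such as TCF4, or to the NF-κB motif GGGNNTTTCC. Those higher in cDC are Tlr3 (chr8:45410331-45410630, minus strand), Plbd1 (chr6:136661844-136662143, minus strand) and Ctla2b (chr13:60897398-60897697, minus strand). Those lower in cDC are Chdh (chr14:30008750-30009049, plus strand, the first of 3 promoters listed), Ccr9 (chr9:123766961-123767260, plus strand) and Dntt (chr19:41029025-41029324, plus strand).
Tlr3: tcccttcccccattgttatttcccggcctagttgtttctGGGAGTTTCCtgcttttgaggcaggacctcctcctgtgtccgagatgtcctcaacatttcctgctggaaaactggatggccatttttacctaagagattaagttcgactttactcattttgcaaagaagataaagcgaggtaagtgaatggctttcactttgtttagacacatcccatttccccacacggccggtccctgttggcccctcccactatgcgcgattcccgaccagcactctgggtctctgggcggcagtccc
Plbd1: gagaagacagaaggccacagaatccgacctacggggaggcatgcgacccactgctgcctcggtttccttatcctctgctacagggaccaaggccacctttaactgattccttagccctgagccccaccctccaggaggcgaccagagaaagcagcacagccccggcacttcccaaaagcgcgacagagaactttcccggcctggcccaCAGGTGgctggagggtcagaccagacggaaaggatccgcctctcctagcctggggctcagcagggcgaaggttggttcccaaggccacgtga
Ctla2b: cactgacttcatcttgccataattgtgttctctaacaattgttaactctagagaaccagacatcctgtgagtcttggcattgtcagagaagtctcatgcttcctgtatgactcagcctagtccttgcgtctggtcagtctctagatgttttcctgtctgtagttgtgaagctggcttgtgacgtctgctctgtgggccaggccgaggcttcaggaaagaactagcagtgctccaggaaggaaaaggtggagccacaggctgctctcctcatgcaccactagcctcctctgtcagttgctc
Chdh: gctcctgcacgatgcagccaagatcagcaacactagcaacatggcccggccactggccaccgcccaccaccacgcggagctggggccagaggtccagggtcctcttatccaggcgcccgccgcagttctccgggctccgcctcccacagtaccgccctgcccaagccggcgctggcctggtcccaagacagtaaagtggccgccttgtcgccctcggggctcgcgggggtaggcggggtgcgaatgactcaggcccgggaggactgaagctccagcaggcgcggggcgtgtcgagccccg
Ccr9: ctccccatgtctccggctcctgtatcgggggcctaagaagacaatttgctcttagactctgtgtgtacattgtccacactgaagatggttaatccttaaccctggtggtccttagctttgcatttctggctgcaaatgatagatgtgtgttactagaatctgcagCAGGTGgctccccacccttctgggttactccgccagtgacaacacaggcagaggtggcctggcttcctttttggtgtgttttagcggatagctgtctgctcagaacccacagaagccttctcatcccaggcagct
Dntt: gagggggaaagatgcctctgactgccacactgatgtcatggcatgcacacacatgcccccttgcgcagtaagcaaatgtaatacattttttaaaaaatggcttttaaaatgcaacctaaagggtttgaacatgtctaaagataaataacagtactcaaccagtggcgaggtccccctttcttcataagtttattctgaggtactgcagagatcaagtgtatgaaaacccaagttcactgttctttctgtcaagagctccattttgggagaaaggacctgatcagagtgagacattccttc

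The Tlr3 promoter held the NF-κB motif from position -211, Plbd1 held CAGGTG from -42 and Ccr9 from -85, counted from the start site. No letters of either motif were found in the Ctla2b, Chdh and Dntt windows. CAGGTG stood in 17.2% of 478 promoters of genes called at least 4-fold higher in cDC and in 24.3% of 341 promoters of genes called at least 4-fold lower. Its share was 16.8% over 9353 promoters of all genes tested and 20.2% over 32851 promoters in the table. The E-box CAGCTG had nearly equal shares in the genes higher and lower, with 16.5% and 16.1%, and was found in 5355 of the 32851 promoters in the table. The NF-κB motif was found in 2.72% of the promoters higher in cDC, 0.88% of those lower, 1.68% of those tested and 1.63% of all. Further motifs were counted in the same windows on both strands, and either may overlap the other. The interferon response motif GAAANNGAAA had shares of 5.23% and 2.35%, with 3.18% over tested genes. The ETS and IRF composite GGAANNGAAA had 3.14% and 2.05%, with 2.52% over tested genes. The PU.1 motif GAGGAAGT had 6.49% and 4.69%, with 3.59% over tested genes. Such a match is a description of the letters and not a binding site.

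Apart from the standard markers, the genes furthest above pDC were led by a lysosomal protein. Plbd1, a lysosomal phospholipase B-like protein, had log2 levels of 12.91 and 13.41 in cDC, against 3.99 and 6.98 in pDC. Both cDC arrays were near the top of the scale, while the pDC arrays were low and 3 units apart (difference 7.67, SE 1.12, adjusted p = 0.00292, limma). Ctla2b, a homologue of the inhibitory propeptide of cathepsins, had 11.29 and 10.85 in cDC, against 2.85 and 3.99 in pDC. The groups lay far apart with little spread inside either, a difference of 7.65 (at least 67.3-fold higher, SE 0.39, adjusted p = 3.57e-05). Hpgd, the enzyme that inactivates prostaglandins, had 9.75 and 9.98 in cDC, against 2.25 and 3.02 in pDC (difference 7.23, SE 0.35, adjusted p = 2.88e-05). The pDC arrays were at or near the lowest level of the platform. Olfm1, a secreted glycoprotein best known from neurons, had 10.998 and 11.27 in cDC, against 4.09 and 3.88 in pDC (difference 7.15, SE 0.20, adjusted p = 6.76e-06). Klrb1b, an inhibitory lectin-like receptor of natural killer cells, had 8.57 and 9.18 in cDC, against 2.25 and 2.25 in pDC, with both pDC arrays at the floor. St8sia6, a sialyltransferase, had 10.85 and 10.97 in cDC, against 4.35 and 4.35 in pDC, and Fgl2, a secreted fibrinogen-like protein, had 13.17 and 12.94 in cDC, against 6.02 and 7.003 in pDC. Only genes without overlap between the groups entered this ranking, so the gap between groups is set by selection. Dab2, an endocytic adaptor, had 10.08 and 10.61 in cDC, against 2.79 and 5.24 in pDC, and Hepacam2, an adhesion protein of the immunoglobulin family, had 8.40 and 10.17 in cDC, against 2.25 and 2.27 in pDC. The pDC arrays of Dab2 were more than 2 units apart, whereas those of Hepacam2 were both at the floor. Hpgd, Klrb1b, St8sia6 and Hepacam2 were above 5 on the cDC arrays alone, so the filter fixed their direction.

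On the pDC side, the largest differences included metabolic, glycan and signalling enzymes. Chdh, choline dehydrogenase of mitochondria, had 2.89 and 2.76 in cDC, against 10.34 and 9.92 in pDC (difference -7.31, SE 0.32, adjusted p = 2.35e-05). Its level in cDC was near the floor on both arrays, a fold of at least 35.1-fold lower. Cmah, which makes the sialic acid Neu5Gc, had 3.34 and 4.62 in cDC, against 10.70 and 10.57 in pDC (difference -6.65, SE 0.38, adjusted p = 5.29e-05). Hs3st1, a heparan sulfate sulfotransferase, had 2.91 and 3.12 in cDC, against 9.50 and 9.34 in pDC, and B3galnt1, the enzyme that makes globoside, had 2.46 and 3.33 in cDC, against 8.56 and 9.19 in pDC. Cmah, Hs3st1 and B3galnt1 were thus among the 15 largest decreases in cDC, while the sialyltransferase St8sia6 was among the 15 largest increases. The share of glycan enzymes over all genes was not counted. Prkca, protein kinase Cα, had 2.33 and 3.34 in cDC, against 8.87 and 9.15 in pDC (difference -6.17, SE 0.32, adjusted p = 3.97e-05). Srpk3, a kinase of splicing factors, had 2.64 and 2.45 in cDC, against 8.57 and 8.56 in pDC, and Ppm1e, a serine and threonine phosphatase, had 2.25 and 2.25 in cDC, against 8.47 and 8.38 in pDC. Both lay at or close to the floor on the cDC arrays. Mctp2, a membrane protein with C2 domains, had 4.74 and 6.28 in cDC, against 12.25 and 12.07 in pDC, and Serpinc1, antithrombin, had 2.62 and 2.26 in cDC, against 9.31 and 7.20 in pDC. The remaining genes of largest difference were Gm6377 on the cDC side and Sh3bgr, D13Ertd608e and Rasl11b on the pDC side. Rasl11b, a small GTPase, was at the floor in cDC, with 2.27 and 2.27 in cDC, against 8.53 and 8.24 in pDC. Hs3st1, B3galnt1, Prkca, Srpk3, Ppm1e, Serpinc1, Sh3bgr and Rasl11b were above 5 on the pDC arrays alone, so the filter fixed their direction.

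**Figure D2:**
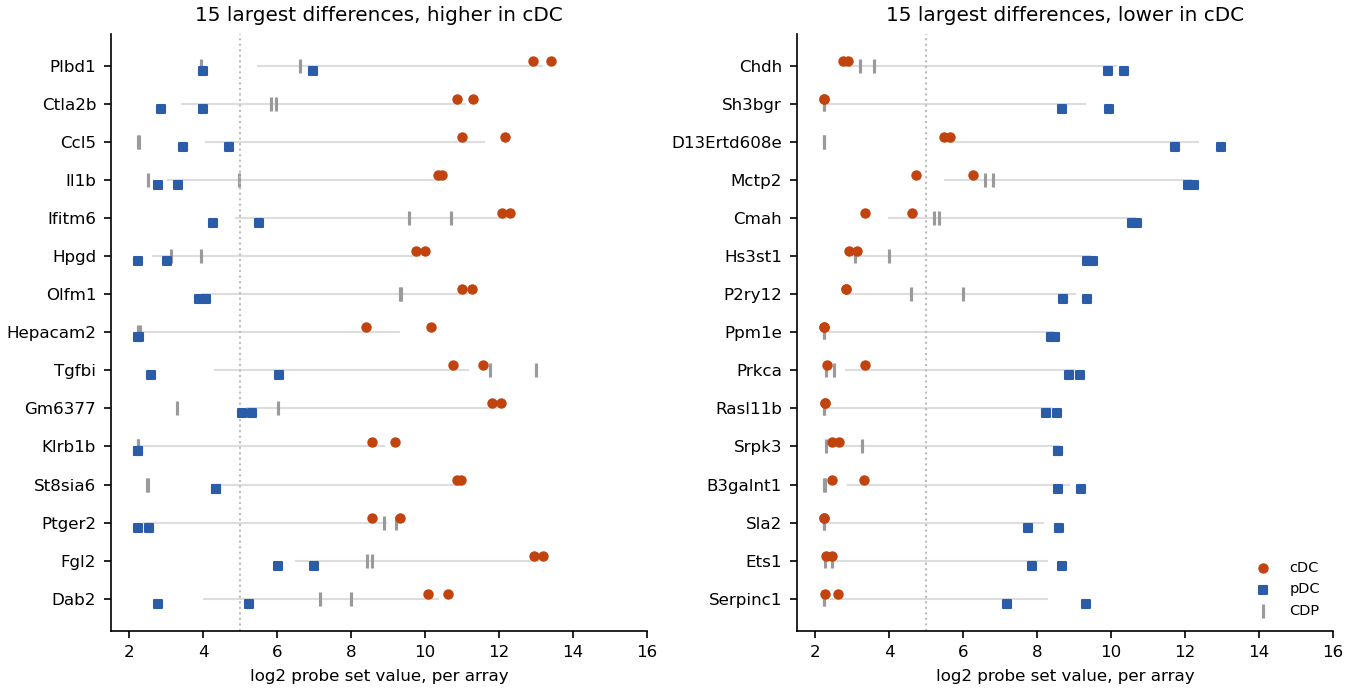
Log2 value on each array for the 15 largest increases (left panel) and the 15 largest decreases (right panel) in cDC outside the standard marker lists, with cDC as circles, pDC as squares, CDP as grey ticks and the low-value limit of 5 as a dotted line. Only genes without overlap between the cDC and pDC arrays were taken, and Plbd1 and Tgfbi have pDC arrays about 3 units apart.

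The labels were checked against standard markers, which serve as a description of the populations. Of 22 cDC markers tested (23 measured), 16 were higher in cDC and 0 lower, with a median difference of 3.04. Of 21 pDC markers tested (24 measured), 0 were higher and 19 lower in cDC, with a median of -4.24. Cd83, an activation marker of cDC, had 12.30 and 11.86 in cDC, against 2.66 and 4.81 in pDC, and Naaa, an acid amidase high in cDC, had 12.02 and 12.99 in cDC, against 5.08 and 6.33 in pDC. In the other direction Siglech had 6.94 and 7.62 in cDC, against 13.19 and 13.15 in pDC and Ly6d 6.68 and 7.53 in cDC, against 14.06 and 13.46 in pDC. The cDC arrays thus carried some level of both pDC markers, as Siglech and Ly6d were above 6 on each. The other 6 cDC markers were not called, among them Itgax (CD11c), with 10.55 and 10.40 in cDC, against 11.07 and 11.28 in pDC and an adjusted p of 0.434, and Flt3, with 10.76 and 11.10 in cDC, against 10.03 and 10.74 in pDC. Sirpa had 10.94 and 10.46 in cDC, against 10.92 and 11.37 in pDC and Cadm1 8.78 and 10.13 in cDC, against 9.31 and 11.50 in pDC, so the 2 surface markers that split cDC into their own subsets were not lower on the pDC arrays as a group. Of the 16 cDC markers called higher, 5 were above 5 on the cDC arrays alone, and of the 19 pDC markers called lower, 1 was above 5 on the pDC arrays alone. The filter fixed the direction of these. Fewer cDC markers were called when either cDC array was left out, in part because those 5 were then not tested.

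**Figure D3:**
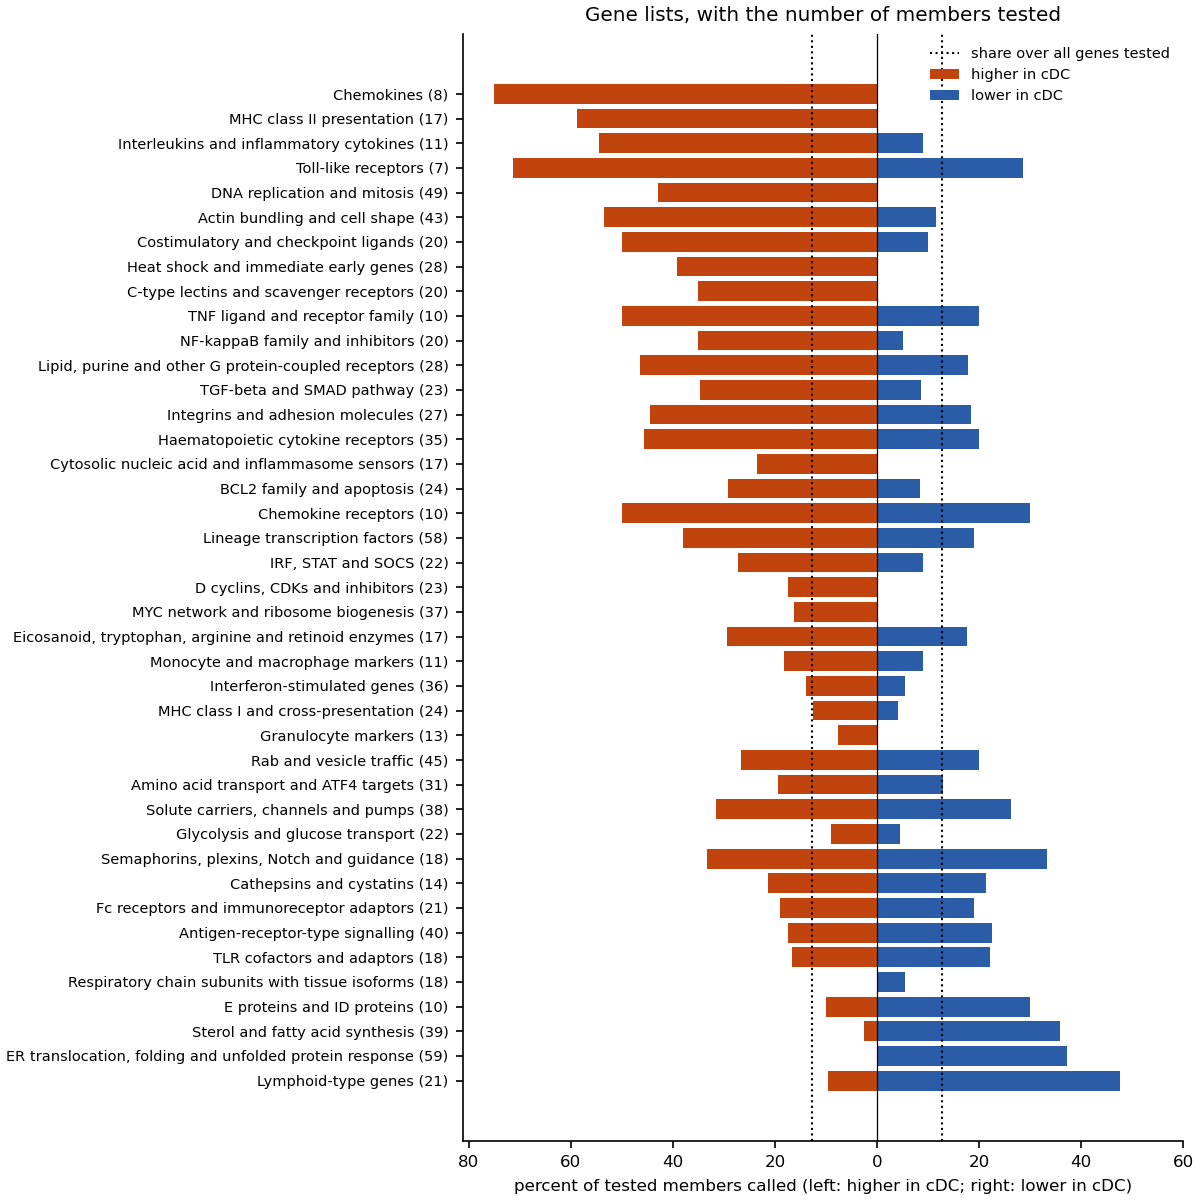
Percent of tested members called higher in cDC (bars to the left) and lower in cDC (bars to the right) for each gene list with at least 7 members tested, the standard marker lists left out, with the share over all genes tested as dotted lines (12.8% and 12.7%). MHC class II and chemokine genes have bars to the left only, and genes of the endoplasmic reticulum to the right only.

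The Toll-like receptors split by subset. Of 7 tested (11 measured), 5 were higher in cDC, 2 were lower and 0 stayed uncalled. Tlr3, the receptor of double-stranded RNA, had 9.95 and 10.83 in cDC, against 2.25 and 3.17 in pDC (difference 7.68, SE 0.37, adjusted p = 2.94e-05). It was at the floor in pDC replicate 1 and low in replicate 2, a fold of at least 41.9-fold higher. Tlr3 was above 5 on the cDC arrays alone, so the filter fixed its direction. Tlr1, which reads bacterial lipopeptides with TLR2, had 11.11 and 10.58 in cDC, against 3.72 and 5.79 in pDC, and Tlr2 had 10.07 and 9.96 in cDC, against 7.19 and 7.82 in pDC. Both were higher on each cDC array. Tlr13, a sensor of bacterial ribosomal RNA, had 9.79 and 8.22 in cDC, against 3.39 and 5.23 in pDC (adjusted p = 0.00349). Tlr4, the receptor of lipopolysaccharide, had 6.36 and 6.36 in cDC, against 2.94 and 3.51 in pDC (difference 3.13, SE 0.25, adjusted p = 0.000237). Tlr1, Tlr2, Tlr4 and Tlr13 were thus all on the cDC side. Tlr7, the receptor of single-stranded RNA, had 7.29 and 5.33 in cDC, against 11.15 and 10.33 in pDC (difference -4.43, SE 0.69, adjusted p = 0.00377). Tlr12, which binds profilin of protozoa, had 2.64 and 2.65 in cDC, against 5.73 and 5.79 in pDC, above the filter on pDC alone. Tlr9, the DNA receptor of pDC, had 4.41 and 3.60 in cDC, against 4.29 and 3.63 in pDC, all under 5, and was not tested. Members called lower numbered 1 without pDC replicate 1 and 1 without pDC replicate 2, through Tlr12 alone, which then no longer passed the filter on low values.

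Partners of these receptors were called in both directions. Of 18 cofactors and adaptors tested (19 measured), 3 were higher and 4 lower in cDC. This makes 38.9% called, against 25.5% of all genes. Tirap, the adaptor that couples TLR2 and TLR4 to MYD88, had 7.09 and 7.63 in cDC, against 5.23 and 5.72 in pDC (difference 1.88, SE 0.28, adjusted p = 0.00303). Irak3, an inhibitor of this pathway, had 6.01 and 6.23 in cDC, against 2.34 and 2.92 in pDC and was at least 2.17-fold higher. Both pDC arrays of Irak3 were under 5. Hsp90b1, the chaperone that folds these receptors in the endoplasmic reticulum, had 13.13 and 13.18 in cDC, against 14.11 and 14.18 in pDC (difference -0.99, SE 0.18, adjusted p = 0.0072). Unc93b1, which carries the endosomal receptors out of that compartment, had 9.18 and 9.67 in cDC, against 10.20 and 10.30 in pDC. The shared adaptor Myd88 had 9.50 and 9.12 in cDC, against 9.65 and 9.001 in pDC (adjusted p = 0.976) and the kinase Irak1 12.36 and 12.68 in cDC, against 12.34 and 12.44 in pDC (adjusted p = 0.674), and for both genes the groups overlapped. Slc15a4, needed for endosomal sensing in pDC, had 9.67 and 9.33 in cDC, against 10.21 and 10.08 in pDC and an adjusted p of 0.051. The count called lower was 2 without cDC replicate 2 and 1 without pDC replicate 1. Other processing gave 1 lower on the 4 arrays alone and with no filter on low values. Single arrays decided the call of Unc93b1 (adjusted p = 0.129 without cDC replicate 1, 0.0903 without pDC replicate 1 and 0.113 without pDC replicate 2).

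**Figure D4:**
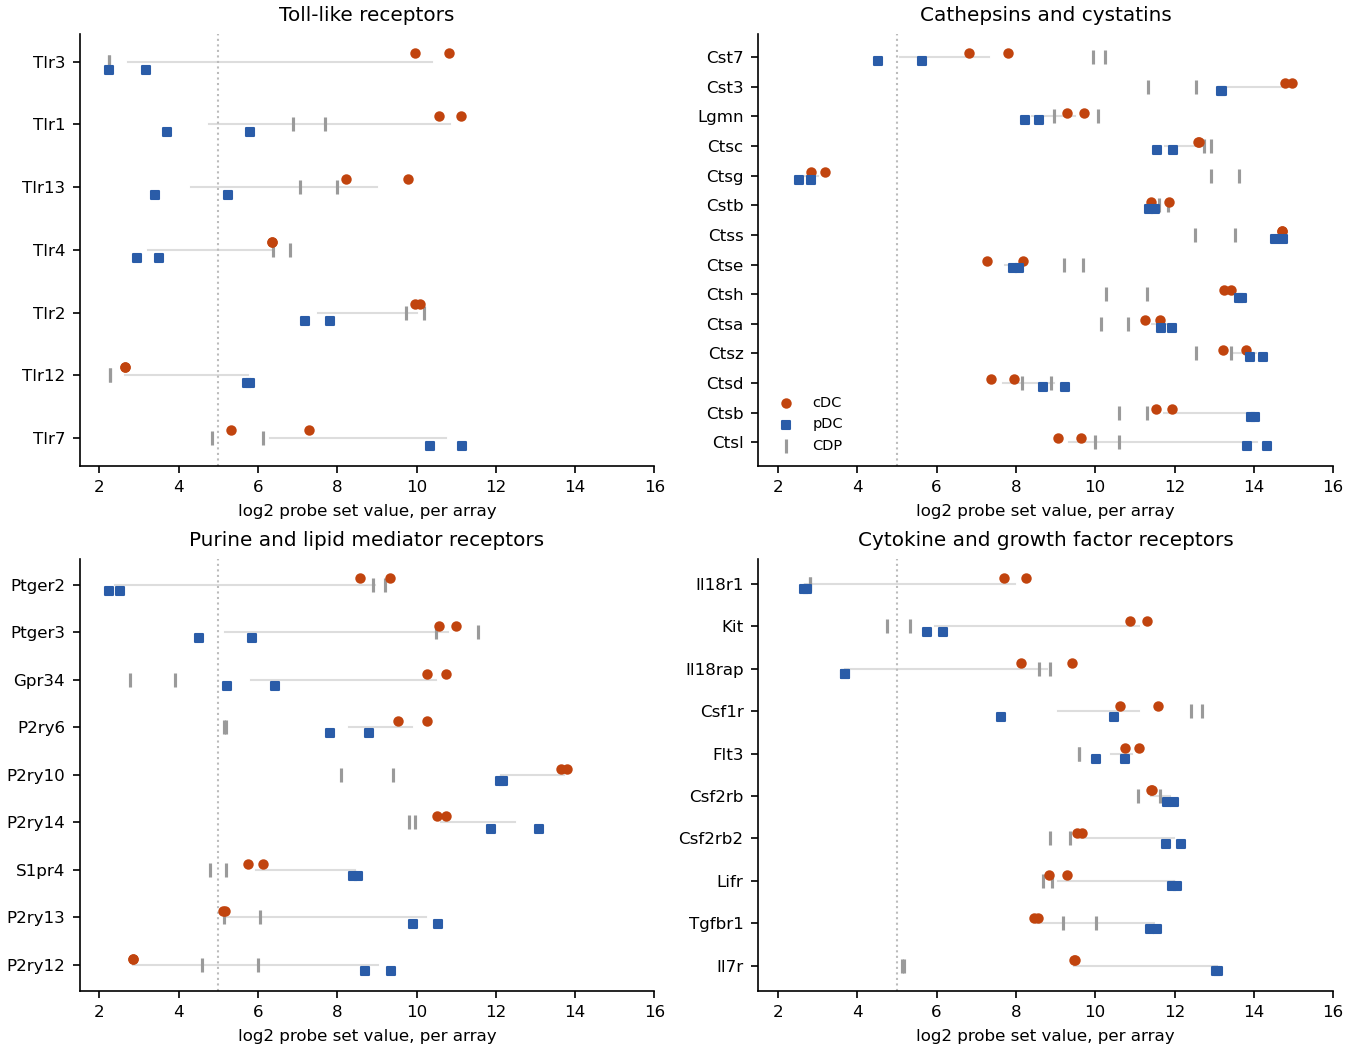
Log2 value on each array for Toll-like receptors, cathepsins and cystatins, purine and lipid mediator receptors, and cytokine and growth factor receptors, with cDC as circles, pDC as squares, CDP as grey ticks and the low-value limit of 5 as a dotted line. Tlr7, Ctsl, P2ry12, P2ry13 and Il7r lie higher in pDC, and Tlr3, Ptger2, Gpr34 and Kit lie higher in cDC.

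Of 17 cytosolic sensors tested (20 measured), 4 were higher and 0 lower in cDC, a called share of 23.5% that is near the 25.5% of all genes. Casp1, the protease of the inflammasome, had 11.35 and 11.13 in cDC, against 10.01 and 9.62 in pDC (difference 1.42, SE 0.20, adjusted p = 0.00229). Cgas, the cytosolic DNA sensor, had 8.49 and 7.51 in cDC, against 6.67 and 6.02 in pDC. By contrast the groups overlapped for Ifih1, the sensor of long double-stranded RNA, with 11.93 and 9.68 in cDC, against 10.11 and 6.57 in pDC, and for Zbp1, with 10.84 and 6.75 in cDC, against 7.84 and 4.34 in pDC. In both, replicate 1 was the higher array of each group, and cDC lay above pDC at each replicate number. Pycard had 12.16 and 12.06 in cDC, against 12.04 and 12.19 in pDC and Sting1 9.95 and 9.52 in cDC, against 9.73 and 9.96 in pDC, differences smaller than the spread between arrays. Single arrays moved the count called higher to 1 without cDC replicate 1 and 1 without pDC replicate 2. Counts also moved to 2 higher on the 4 arrays alone and with no filter on low values. With one array left out, the call was lost for Cgas (adjusted p = 0.0771 without cDC replicate 1 and 0.0895 without pDC replicate 2).

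Among C-type lectins and scavenger receptors, 7 of 20 tested (34 measured) were higher in cDC and 0 lower, with a median difference of 1.71. This makes 35.0% called, against 25.5% of all genes. Clec4b1, an activating receptor of the Dectin-2 cluster, had 10.68 and 10.05 in cDC, against 2.76 and 5.34 in pDC (difference 6.32, SE 1.05, adjusted p = 0.0051). Clec4a2 had 10.50 and 10.26 in cDC, against 2.93 and 6.52 in pDC and Clec4a3 10.66 and 10.08 in cDC, against 2.51 and 7.05 in pDC, and Clec7a, the β-glucan receptor, had 8.92 and 8.75 in cDC, against 3.05 and 6.13 in pDC. In all 4 the cDC arrays lay close together, while pDC replicate 2 was at least 2 units above pDC replicate 1. That array was the higher of the pDC pair by more than 1 for 11 of the 20 tested members, the same array on which macrophage markers were high. The part of macrophages in the lectin levels was not tested. The count of higher members became 2 without cDC replicate 1 and 2 without cDC replicate 2, and 1 member was called lower without pDC replicate 2. In other settings there were 3 higher on the 4 arrays alone and 1 higher with no filter on low values. The call did not hold without one array for Clec4a2 (adjusted p = 0.0775 without cDC replicate 1, 0.0649 without cDC replicate 2 and 0.0554 without pDC replicate 1), Clec4a3 (adjusted p = 0.127 without cDC replicate 1, 0.0954 without cDC replicate 2 and 0.0874 without pDC replicate 1) and Clec7a (adjusted p = 0.0637 without cDC replicate 1 and 0.0537 without cDC replicate 2).

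Fc receptors and immunoreceptor adaptors went both ways, with 4 of 21 tested (28 measured) higher and 4 lower in cDC. Their called share was 38.1%, against 25.5% of all genes. Fcrla, an intracellular Fc receptor-like protein of B cells, had 3.09 and 4.89 in cDC, against 10.12 and 8.75 in pDC (difference -5.44, SE 0.63, adjusted p = 0.00105). Lair1, an inhibitory receptor for collagen, had 6.56 and 6.99 in cDC, against 12.08 and 11.65 in pDC (difference -5.09, SE 0.32, adjusted p = 8.06e-05). Both were low on the cDC arrays. Fcrl1, a receptor-like protein also known from B cells, stood on the other side, with 7.60 and 6.39 in cDC, against 2.78 and 2.55 in pDC and a fold of at least 3.98-fold. Fcrla was above 5 on the pDC arrays alone and Fcrl1 on the cDC arrays alone, so the filter fixed their direction. Trem1, which amplifies inflammation in myeloid cells, had 5.34 and 5.299 in cDC, against 3.59 and 3.59 in pDC, just above 5 in cDC. Tyrobp, the adaptor DAP12 used by SIGLECH, had 13.46 and 13.56 in cDC, against 14.54 and 14.53 in pDC, and Fcer1g, the other main adaptor, had 12.25 and 11.49 in cDC, against 12.11 and 11.77 in pDC and was not called (adjusted p = 0.947). With one array dropped, members called higher numbered 2 without cDC replicate 1, 2 without cDC replicate 2 and 2 without pDC replicate 1, and that called lower was 2 without pDC replicate 1 and 2 without pDC replicate 2. A change of processing left 1 higher with the mean of all probe sets. Leaving out one array ended the call for Tyrobp (adjusted p = 0.108 without cDC replicate 1, 0.079 without cDC replicate 2, 0.0987 without pDC replicate 1 and 0.0863 without pDC replicate 2).

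MHC class II genes were higher in cDC or not called. Of 17 tested (17 measured), 10 were higher and 0 lower, with a median difference of 2.05. Ciita, the master activator of class II genes, had 9.48 and 9.21 in cDC, against 3.67 and 4.84 in pDC (difference 5.09, SE 0.37, adjusted p = 0.000159). Both pDC arrays were under 5, a fold of at least 20.3-fold. H2-Ob and H2-DMb2, chains of the molecules that steer peptide loading, had 13.08 and 13.04 in cDC, against 8.62 and 8.91 in pDC and 12.48 and 12.02 in cDC, against 7.79 and 8.02 in pDC. H2-Eb2 had 7.99 and 6.58 in cDC, against 2.51 and 2.46 in pDC, with both pDC arrays near the floor. Ciita and H2-Eb2 were above 5 on the cDC arrays alone, so the filter fixed their direction. The classical chains were high in both subsets: H2-Ab1 had 14.24 and 14.06 in cDC, against 10.88 and 10.88 in pDC (difference 3.27, SE 0.63, adjusted p = 0.00953), H2-Eb1 had 14.49 and 14.36 in cDC, against 11.11 and 11.25 in pDC and H2-Aa had 14.96 and 15.01 in cDC, against 13.69 and 13.62 in pDC (adjusted p = 0.0863). H2-Aa did not pass the test although its arrays did not overlap, and the spread used in the test also took in the CDP and MPP arrays. On the 4 cDC and pDC arrays alone 13 members of the list were called higher. The count was 12 with the mean of all probe sets and 7 with no filter on low values. The invariant chain Cd74 had 14.36 and 14.38 in cDC, against 12.11 and 12.01 in pDC (adjusted p = 0.0575). Rfx5, a factor that binds class II promoters, had 9.23 and 8.88 in cDC, against 7.22 and 6.78 in pDC (difference 2.05, SE 0.22, adjusted p = 0.000783), while its partner Rfxap had 7.42 and 7.87 in cDC, against 7.11 and 7.47 in pDC and was not called. Ifi30, the lysosomal thiol reductase that unfolds antigen, had 12.90 and 12.46 in cDC, against 10.59 and 10.51 in pDC. Leave-one-out fits called higher 5 without cDC replicate 1.

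Among proteases that cut antigen and invariant chain, and their inhibitors, calls went both ways. Of 14 cathepsins and cystatins tested (19 measured), 3 were higher and 3 lower in cDC. Their called share was 42.9%, against 25.5% of all genes. Ctsl, a cysteine protease of lysosomes, had 9.06 and 9.63 in cDC, against 14.34 and 13.84 in pDC (difference -4.74, SE 0.37, adjusted p = 0.000215). The pDC arrays were more than 4 units higher, 26.8-fold. Ctsb had 11.53 and 11.95 in cDC, against 13.94 and 14.03 in pDC (difference -2.24, SE 0.27, adjusted p = 0.00124). Ctss, the main protease for invariant chain in dendritic cells, had 14.71 and 14.71 in cDC, against 14.73 and 14.54 in pDC and an adjusted p of 0.91, and its groups overlapped. Ctsd, an aspartic protease, had 7.38 and 7.95 in cDC, against 8.69 and 9.23 in pDC (difference -1.29, SE 0.33, adjusted p = 0.0274). Ctsc, which activates granule proteases, had 12.58 and 12.62 in cDC, against 11.97 and 11.56 in pDC (difference 0.83, SE 0.20, adjusted p = 0.0218). Ctsc was the one protease called higher in cDC, and the other 2 members called higher were inhibitors. The inhibitor Cst3 had 14.97 and 14.79 in cDC, against 13.16 and 13.21 in pDC, and Cst7, cystatin F, had 7.81 and 6.82 in cDC, against 5.63 and 4.52 in pDC. The number called higher was 0 without cDC replicate 1, 1 without cDC replicate 2 and 1 without pDC replicate 2. Under other settings the counts were 0 higher with no filter on low values. Single arrays decided the call of Ctsd (adjusted p = 0.144 without cDC replicate 1 and 0.135 without pDC replicate 2), Ctsc (adjusted p = 0.085 without cDC replicate 1, 0.0925 without cDC replicate 2 and 0.11 without pDC replicate 2), Cst3 (adjusted p = 0.0797 without cDC replicate 1, 0.0561 without cDC replicate 2, 0.0731 without pDC replicate 1 and 0.0595 without pDC replicate 2) and Cst7 (adjusted p = 0.056 without cDC replicate 1).

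Class I presentation genes were called in both directions. Of 24 tested (26 measured), 3 were higher and 1 lower in cDC, and the share called, 16.7%, was under that of all genes. B2m had 14.81 and 14.13 in cDC, against 14.92 and 14.05 in pDC and Tap1 10.43 and 10.02 in cDC, against 9.87 and 8.93 in pDC, and the groups overlapped for B2m. Wdfy4, a protein needed for cross-presentation by cDC1, had 13.15 and 13.47 in cDC, against 10.59 and 10.55 in pDC (difference 2.74, SE 0.19, adjusted p = 0.000117). It was high in both subsets and 6.68-fold higher in cDC. Cd1d1, which presents lipid to NKT cells, had 10.94 and 10.32 in cDC, against 9.37 and 9.11 in pDC (difference 1.39, SE 0.24, adjusted p = 0.00604). Cybb, an oxidase subunit that keeps phagosomes from acidifying, had 13.67 and 13.24 in cDC, against 14.39 and 14.11 in pDC and was not called (adjusted p = 0.0873). The one member called lower, Sec22b, a SNARE protein of the secretory path, had 8.73 and 8.65 in cDC, against 9.34 and 9.21 in pDC, and the number called lower was 0 without cDC replicate 1, 0 without cDC replicate 2, 0 without pDC replicate 1 and 0 without pDC replicate 2. With one array left out, the call was lost for Sec22b (adjusted p = 0.0989 without cDC replicate 1, 0.133 without cDC replicate 2, 0.156 without pDC replicate 1 and 0.0813 without pDC replicate 2).

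Ligands that instruct T cells were called more often higher than lower in cDC. Of 20 costimulatory and checkpoint genes tested (32 measured), 10 were higher and 2 lower in cDC. Cd86, a ligand of CD28, had 10.75 and 10.03 in cDC, against 6.80 and 5.21 in pDC (difference 4.38, SE 0.75, adjusted p = 0.00584). Its partner Cd80 had 7.47 and 6.46 in cDC, against 2.72 and 2.82 in pDC (difference 4.20, SE 0.51, adjusted p = 0.00133), and both pDC arrays of Cd80 were under 5. Slamf8, a receptor of the SLAM family found on myeloid cells, had 7.78 and 7.75 in cDC, against 2.25 and 2.31 in pDC, at the floor in pDC. Slamf6, a SLAM receptor of lymphocytes, ran the other way, with 3.89 and 3.30 in cDC, against 7.50 and 7.42 in pDC (difference -3.86, SE 0.22, adjusted p = 5.27e-05). Cd200, a ligand that restrains myeloid cells, had 7.96 and 8.06 in cDC, against 9.22 and 9.37 in pDC and was 2.43-fold lower. Both Slamf6 arrays in cDC were under 5. Members called higher numbered 4 without cDC replicate 1 and 5 without cDC replicate 2, and that called lower was 1 without pDC replicate 1 and 1 without pDC replicate 2. Of the called members, 3 higher were above 5 on the cDC arrays alone and 1 lower on the pDC arrays alone.

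TNF family genes were fewer on these arrays, with 10 tested of 26 measured, of which 5 were higher and 2 lower in cDC. Ltb, a ligand that organises lymphoid tissue, had 11.84 and 10.99 in cDC, against 8.28 and 7.31 in pDC (difference 3.62, SE 0.64, adjusted p = 0.00664). Its receptor Ltbr had 5.93 and 6.38 in cDC, against 5.25 and 4.78 in pDC. Tnfrsf1a, a receptor of TNF, had 8.72 and 8.92 in cDC, against 7.70 and 7.60 in pDC (difference 1.17, SE 0.21, adjusted p = 0.00714). Tnfrsf13b (TACI), a receptor of BAFF known from B cells, had 11.40 and 11.15 in cDC, against 12.34 and 12.18 in pDC, high in both and highest in pDC. Without single arrays, counts were 3 without cDC replicate 2 and 3 without pDC replicate 1 for higher and 0 without cDC replicate 1, 1 without cDC replicate 2, 0 without pDC replicate 1 and 1 without pDC replicate 2 for lower. Processed otherwise, the data gave 1 higher with no filter on low values. The call did not hold without one array for Tnfrsf13b (adjusted p = 0.0821 without cDC replicate 1, 0.15 without cDC replicate 2, 0.147 without pDC replicate 1 and 0.0893 without pDC replicate 2).

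Secreted cytokines and chemokines included genes above 5 on the cDC arrays alone. Of 11 interleukins and related cytokines tested (33 measured), 6 were higher and 1 lower in cDC, and of 8 chemokines tested (30 measured), 6 were higher and 0 lower. Of those called higher, 4 of the cytokines (Il1b, Il6, Il12b and Pdgfb) and 3 of the chemokines were above 5 on the cDC arrays alone, so the filter fixed their direction and the counts are a description. Il1b had 10.44 and 10.34 in cDC, against 2.78 and 3.33 in pDC (difference 7.34, SE 0.69, adjusted p = 0.000449). The cDC arrays were close to each other and far above pDC. Il6 had 7.44 and 5.66 in cDC, against 2.25 and 2.25 in pDC and Il12b, the shared p40 chain of IL-12 and IL-23, had 8.00 and 5.56 in cDC, against 2.25 and 2.25 in pDC. Both pDC arrays of each gene were at the floor, and cDC replicate 1 was the higher cDC array for both. Il12a, the p35 chain of IL-12, went against its partner, with 3.95 and 5.39 in cDC, against 7.37 and 8.70 in pDC (difference -3.37, SE 0.63, adjusted p = 0.00838). Il12a was therefore the one member of the list called lower in cDC. Pdgfb, a growth factor for mesenchymal cells, had 6.32 and 6.15 in cDC, against 2.25 and 2.25 in pDC and was at least 2.36-fold higher. The number of interleukins called higher was 1 without cDC replicate 1 and 1 without cDC replicate 2, and that called lower was 2 without cDC replicate 2. The alternatives gave 2 cytokines higher with a limit of 7 in the filter, 3 cytokines higher with values under 5 raised to 5 and 3 chemokines higher with no filter on low values.

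Ccl5, a chemokine of activated lymphocytes and myeloid cells, had 12.16 and 11.01 in cDC, against 3.44 and 4.71 in pDC (difference 7.51, SE 0.48, adjusted p = 9.10e-05). It was at least 95.8-fold higher, with both pDC arrays under 5. Ccl22, which draws CCR4+ T cells, had 8.32 and 6.64 in cDC, against 2.25 and 2.25 in pDC, at the floor in pDC, and Ccl3 had 9.02 and 8.79 in cDC, against 3.23 and 3.75 in pDC (difference 5.41, SE 0.91, adjusted p = 0.00539). Cxcl16, a membrane-bound ligand of CXCR6, had 8.30 and 7.64 in cDC, against 2.57 and 4.38 in pDC. Ccl9 had 11.38 and 10.77 in cDC, against 4.63 and 8.20 in pDC and Ccl6 10.89 and 10.69 in cDC, against 6.38 and 8.41 in pDC, and for these pDC replicate 2 lay 2 units or more above replicate 1. In CDP, Ccl3 was at 11.40 and 9.04 and Ccl9 at 11.62 and 10.93, while Ccl5 and Ccl22 were at the floor or close to it. The number of chemokines called higher was 1 without cDC replicate 1 and 1 without cDC replicate 2. Ccl5, Ccl22 and Cxcl16 were above 5 on the cDC arrays alone and were not tested without either of them. Leaving out one array ended the call for Ccl9 (adjusted p = 0.0824 without cDC replicate 1 and 0.0549 without cDC replicate 2).

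Chemokine receptors were called in both directions. Of 10 tested (20 measured), 5 were higher and 3 lower in cDC. Ccr7, which guides cells to lymph nodes, had 10.34 and 8.47 in cDC, against 4.53 and 3.82 in pDC (difference 5.23, SE 0.73, adjusted p = 0.00245). The pDC arrays were under 5, a fold of at least 21.2-fold. Xcr1, the receptor for XCL1 on cDC1, had 7.002 and 7.18 in cDC, against 2.25 and 2.25 in pDC with pDC at the floor. Ccr6 had 9.10 and 8.86 in cDC, against 5.99 and 5.73 in pDC (difference 3.12, SE 0.39, adjusted p = 0.00142), and Ccrl2, which binds chemerin without signalling, had 6.38 and 5.36 in cDC, against 3.12 and 2.81 in pDC. Ccr9, the gut-homing receptor and a pDC marker, had 5.52 and 7.14 in cDC, against 13.96 and 13.21 in pDC (difference -7.25, SE 0.50, adjusted p = 0.000124). Cxcr4, which holds cells in the bone marrow, had 7.91 and 7.44 in cDC, against 9.001 and 9.76 in pDC (difference -1.71, SE 0.29, adjusted p = 0.00525), and CDP were higher still at 10.76 and 10.68. Ccr2 was high in both subsets, with 12.97 and 13.25 in cDC, against 13.57 and 13.81 in pDC, and was not called (adjusted p = 0.131). Of the 5 called higher, Xcr1 and Ccrl2 were above 5 on the cDC arrays alone, so the filter fixed their direction. They were not tested when either cDC array was left out.

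Receptors for lipids and nucleotides were called in both directions. Of 28 tested (36 measured), 13 were higher and 5 lower in cDC. The PGE2 receptor Ptger2 had 8.56 and 9.33 in cDC, against 2.25 and 2.53 in pDC (difference 6.56, SE 0.28, adjusted p = 2.35e-05), and Ptger3 had 10.99 and 10.57 in cDC, against 4.50 and 5.85 in pDC (difference 5.61, SE 0.52, adjusted p = 0.000437). Both were already high in CDP, with 9.20 and 8.90 for Ptger2 and 11.55 and 10.49 for Ptger3. Gpr34, a receptor of lysophosphatidylserine, had 10.26 and 10.73 in cDC, against 5.23 and 6.44 in pDC, and its CDP arrays were under 5 (3.92 and 2.76). The ADP receptor P2ry12, known from platelets and microglia, had 2.84 and 2.84 in cDC, against 9.35 and 8.71 in pDC (difference -6.19, SE 0.44, adjusted p = 0.000135). Its neighbour on chromosome 3, P2ry13, had 5.11 and 5.16 in cDC, against 10.54 and 9.92 in pDC (difference -5.10, SE 0.35, adjusted p = 0.00012), so both ADP receptors were higher in pDC. S1pr4, a receptor for sphingosine 1-phosphate, had 5.76 and 6.13 in cDC, against 8.52 and 8.39 in pDC (difference -2.52, SE 0.22, adjusted p = 0.00035). P2ry14, the receptor of UDP-glucose, had 10.51 and 10.73 in cDC, against 13.07 and 11.87 in pDC and Adgre4 9.63 and 10.20 in cDC, against 3.79 and 7.09 in pDC. The count of higher members became 6 without cDC replicate 2 and 6 without pDC replicate 1. Other processing gave 5 higher with no filter on low values and 3 lower on the 4 arrays alone. Single arrays decided the call of P2ry14 (adjusted p = 0.116 without cDC replicate 1, 0.0818 without cDC replicate 2 and 0.114 without pDC replicate 1) and Adgre4 (adjusted p = 0.131 without cDC replicate 1, 0.168 without cDC replicate 2 and 0.212 without pDC replicate 1).

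Adhesion molecules were called more often higher in cDC. Of 27 integrins and adhesion genes tested (38 measured), 12 were higher and 5 lower in cDC. Tspan33, a tetraspanin, had 10.07 and 10.41 in cDC, against 4.11 and 4.72 in pDC (difference 5.83, SE 0.25, adjusted p = 2.35e-05), and Itga1, the collagen-binding α1 integrin, had 7.11 and 8.56 in cDC, against 2.56 and 2.25 in pDC (difference 5.43, SE 0.46, adjusted p = 0.0003). Cd34, a sialomucin of progenitors, had 6.10 and 7.25 in cDC, against 2.74 and 2.37 in pDC and remained at 9.17 and 9.16 in CDP. Itgal, the α chain of LFA-1, had 8.62 and 9.34 in cDC, against 12.16 and 11.83 in pDC (difference -3.01, SE 0.44, adjusted p = 0.00286), and Itgb3, the β chain of the vitronectin receptor, had 5.38 and 5.75 in cDC, against 8.20 and 8.68 in pDC. Both integrin chains were lower on each cDC array. Cd37, a tetraspanin of lymphocytes, had 7.14 and 7.19 in cDC, against 9.38 and 9.50 in pDC, and Cdh1, E-cadherin, had 8.16 and 6.56 in cDC, against 11.25 and 10.62 in pDC. With one array dropped, members called lower numbered 3 without pDC replicate 1. Counts also moved to 1 lower with no filter on low values. With one array left out, the call was lost for Cdh1 (adjusted p = 0.0534 without pDC replicate 1).

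Genes of cell shape were called mostly higher in cDC. Of 43 tested (47 measured), 23 were higher and 5 lower in cDC, a called share of 65.1% against 25.5% of all genes. Fscn1, the actin bundler of dendrites, had 13.53 and 12.15 in cDC, against 6.38 and 5.01 in pDC (difference 7.15, SE 0.67, adjusted p = 0.000449). Another probe set of Fscn1 above 5 gave a difference of 2.17. Tiam1, an activator of RAC, had 9.62 and 9.24 in cDC, against 3.75 and 4.22 in pDC (difference 5.44, SE 0.31, adjusted p = 5.59e-05), and Vav3, an exchange factor of the VAV family, had 10.93 and 10.73 in cDC, against 7.24 and 7.44 in pDC (difference 3.49, SE 0.17, adjusted p = 2.92e-05). The annexins Anxa1 and Anxa3 had 13.80 and 13.80 in cDC, against 7.33 and 9.80 in pDC and 9.95 and 8.67 in cDC, against 2.79 and 4.58 in pDC, with pDC replicate 2 the higher pDC array of each. Pls3, another actin bundler, had 5.75 and 6.61 in cDC, against 9.42 and 9.73 in pDC (difference -3.39, SE 0.41, adjusted p = 0.00133), and the tubulin Tubb2b had 8.78 and 9.07 in cDC, against 10.74 and 10.86 in pDC. The bundlers fascin and plastin 3 were thus on opposite sides. Rac2, a small GTPase of blood cells, had 10.23 and 9.91 in cDC, against 11.64 and 11.23 in pDC. Leave-one-out fits called lower 3 without cDC replicate 1, 3 without cDC replicate 2 and 2 without pDC replicate 1. In other settings there were 2 lower with no filter on low values. The call did not hold without one array for Rac2 (adjusted p = 0.0635 without cDC replicate 2 and 0.0688 without pDC replicate 1).

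The balance of E proteins and their inhibitors differed in both arms. Of 10 tested (11 measured), 1 was higher and 3 were lower in cDC. Id2, an inhibitor of E proteins, had 15.23 and 15.30 in cDC, against 11.21 and 12.14 in pDC (difference 3.59, SE 0.39, adjusted p = 0.000813). Id3, an inhibitor of the same family, had 3.57 and 4.13 in cDC, against 8.38 and 8.91 in pDC (difference -4.79, SE 0.47, adjusted p = 0.000537), and so ran opposite to Id2. Its level in CDP was 10.47 and 9.005. Among the E proteins, Tcf4 had 11.87 and 12.16 in cDC, against 14.39 and 14.30 in pDC (difference -2.33, SE 0.18, adjusted p = 0.00022) and Tcf12 had 10.44 and 10.85 in cDC, against 13.08 and 12.68 in pDC (difference -2.23, SE 0.27, adjusted p = 0.00136). Tcf3 had 6.43 and 5.87 in cDC, against 6.11 and 7.07 in pDC and was not called (adjusted p = 0.449), with overlapping groups. Other probe sets of Tcf4 above 5 gave differences of -2.97 to 0.07. Tcf4 was at 11.97 and 12.01 in CDP, about the level of cDC. The number called higher was 2 without pDC replicate 2.

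Interferon regulatory factors and STAT pathway genes were mixed. Of 22 tested (24 measured), 6 were higher and 2 lower in cDC, a called share of 36.4% against 25.5% of all genes. Irf8, a factor of both lineages, had 12.99 and 13.70 in cDC, against 14.88 and 15.03 in pDC (difference -1.61, SE 0.27, adjusted p = 0.00538), and Irf1 had 8.37 and 7.90 in cDC, against 9.98 and 9.44 in pDC (difference -1.57, SE 0.27, adjusted p = 0.00571). Irf4, a factor of cDC2, had 8.83 and 8.31 in cDC, against 5.41 and 6.45 in pDC (difference 2.65, SE 0.38, adjusted p = 0.00266). Irf7, the master factor of interferon production in pDC, had 9.09 and 5.18 in cDC, against 9.88 and 8.10 in pDC and an adjusted p of 0.304. Its groups overlapped, since cDC replicate 1 was above pDC replicate 2, although cDC lay below pDC at each replicate number. Socs2, an inhibitor of cytokine signals, had 9.59 and 7.63 in cDC, against 3.88 and 2.97 in pDC (difference 5.19, SE 0.67, adjusted p = 0.00168), and Stat4, which carries the IL-12 signal, had 10.04 and 9.32 in cDC, against 6.41 and 6.54 in pDC (difference 3.20, SE 0.34, adjusted p = 0.000783). Leave-one-out counts were 3 without cDC replicate 2 and 3 without pDC replicate 1 for higher and 4 without cDC replicate 1 for lower. Socs5 had 8.55 and 8.78 in cDC, against 7.38 and 7.89 in pDC. Leaving out one array ended the call for Socs5 (adjusted p = 0.0765 without cDC replicate 2 and 0.074 without pDC replicate 1).

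NF-κB genes were called mainly on the cDC side. Of 20 tested (20 measured), 7 were higher and 1 lower. Relb, a subunit of the alternative pathway, had 8.73 and 7.22 in cDC, against 4.00 and 3.65 in pDC (difference 4.15, SE 0.67, adjusted p = 0.00447). Map3k14, the kinase NIK that starts that pathway, had 8.25 and 7.70 in cDC, against 4.99 and 5.25 in pDC (difference 2.86, SE 0.32, adjusted p = 0.000912). Traf1, a target and brake of the pathway, had 8.00 and 6.67 in cDC, against 2.37 and 2.37 in pDC, with pDC near the floor. It was above 5 on the cDC arrays alone, so the filter fixed its direction. Rela and Rel of the classical pathway were not called: Rela had 9.25 and 9.16 in cDC, against 8.68 and 8.55 in pDC (adjusted p = 0.0572) and Rel had 7.41 and 6.79 in cDC, against 6.07 and 5.45 in pDC (adjusted p = 0.0526). The inhibitors were divided, with Nfkbia at 14.16 and 14.15 in cDC, against 12.54 and 12.89 in pDC and Nfkbid at 7.79 and 7.50 in cDC, against 8.92 and 9.18 in pDC. Members called higher numbered 4 without cDC replicate 1 and 4 without pDC replicate 1, and that called lower was 0 without cDC replicate 2 and 0 without pDC replicate 2. A change of processing left 3 higher with no filter on low values. Single arrays decided the call of Nfkbia (adjusted p = 0.0757 without cDC replicate 1, 0.0701 without cDC replicate 2 and 0.0937 without pDC replicate 1) and Nfkbid (adjusted p = 0.071 without cDC replicate 2 and 0.0669 without pDC replicate 2).

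Among lineage transcription factors, 22 of 58 tested (75 measured) were higher and 11 lower in cDC, a called share of 56.9% against 25.5% of all genes. Myc had 9.51 and 9.14 in cDC, against 3.42 and 3.44 in pDC (difference 5.89, SE 0.32, adjusted p = 4.31e-05). Both pDC arrays were under 5, while CDP stood at 8.39 and 7.83. Zbtb46, a repressor restricted to cDC, had 7.84 and 8.48 in cDC, against 3.89 and 3.91 in pDC (difference 4.26, SE 0.24, adjusted p = 5.00e-05), and Batf3, a factor of cDC1, had 6.31 and 6.66 in cDC, against 2.90 and 2.69 in pDC. The nuclear receptor Nr4a3 had 9.20 and 7.71 in cDC, against 2.97 and 3.10 in pDC (difference 5.42, SE 0.44, adjusted p = 0.000244), and the stress-induced factor Atf3 had 7.38 and 7.91 in cDC, against 3.29 and 4.27 in pDC. Each of these was higher on both cDC arrays. Klf4 had 11.63 and 12.07 in cDC, against 8.80 and 10.72 in pDC. Runx3 was not called, with 9.35 and 9.51 in cDC, against 9.30 and 9.48 in pDC (adjusted p = 0.92). Single arrays moved the count called higher to 13 without cDC replicate 1 and 14 without cDC replicate 2. Of the called members, 4 higher, among them Zbtb46, Batf3 and Nr4a3, were above 5 on the cDC arrays alone and 1 lower, Ets1, on the pDC arrays alone. The filter fixed the direction of these members. With one array left out, the call was lost for Klf4 (adjusted p = 0.103 without cDC replicate 1, 0.16 without cDC replicate 2 and 0.0947 without pDC replicate 1).

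Ets1, Myb and Ikzf2 were among the 11 factors called lower in cDC. Ets1, a factor of T, B and NK cells, had 2.29 and 2.47 in cDC, against 7.87 and 8.67 in pDC (difference -5.89, SE 0.54, adjusted p = 0.000401), near the floor in cDC. Myb, a factor of progenitors, had 8.35 and 8.10 in cDC, against 11.61 and 11.75 in pDC (difference -3.45, SE 0.18, adjusted p = 3.60e-05), and CDP held 11.89 and 12.06. The pDC arrays were thus close to CDP and the cDC arrays lower. Ikzf2 (Helios) had 5.65 and 6.29 in cDC, against 9.34 and 8.84 in pDC (difference -3.13, SE 0.37, adjusted p = 0.00117), Zeb2, which keeps Id2 low, had 8.88 and 8.09 in cDC, against 11.06 and 11.49 in pDC (difference -2.79, SE 0.34, adjusted p = 0.00128) and Bcl11a had 11.07 and 10.97 in cDC, against 12.37 and 12.29 in pDC. Spib had 10.17 and 9.68 in cDC, against 12.98 and 13.05 in pDC. Tsc22d1, a leucine zipper protein, had 9.90 and 10.42 in cDC, against 14.02 and 13.79 in pDC (difference -3.75, SE 0.37, adjusted p = 0.000544), but other probe sets of this gene above 5 gave differences of -4.54 to 2.41. The count of lower members became 7 without cDC replicate 2. The call did not hold without one array for Spib (adjusted p = 0.052 without cDC replicate 2).

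Genes of the lymphocyte programme were called mostly lower in cDC. Of 21 tested (49 measured), 2 were higher and 10 lower in cDC, and 25 measured members were under 5 on all 4 arrays. Dntt, the enzyme that adds bases when antigen receptors are joined, had 2.89 and 4.30 in cDC, against 10.23 and 10.57 in pDC (difference -6.80, SE 0.45, adjusted p = 0.000102). Cd28, the T cell receptor for CD80 and CD86, had 6.47 and 8.24 in cDC, against 11.63 and 11.75 in pDC (difference -4.33, SE 0.50, adjusted p = 0.00105), and CDP had 10.99 and 10.89. Il7r, the receptor of the lymphoid cytokine IL-7, had 9.46 and 9.48 in cDC, against 13.09 and 13.05 in pDC (difference -3.60, SE 0.17, adjusted p = 2.77e-05), against 5.17 and 5.12 in CDP. Blk, a kinase of B cells, had 2.25 and 2.38 in cDC, against 5.21 and 6.69 in pDC, and Blnk, the adaptor that links SYK to BTK, had 9.15 and 8.69 in cDC, against 12.04 and 11.84 in pDC. All were lower on both cDC arrays. The exceptions were Cnr2, the cannabinoid receptor of immune cells, with 6.27 and 6.26 in cDC, against 2.56 and 2.80 in pDC, and Cd72, with 11.10 and 10.33 in cDC, against 8.62 and 8.98 in pDC. With one array dropped, members called higher numbered 1 without cDC replicate 1 and 1 without pDC replicate 1. Of the members called lower, 3 (Dntt, Blk and Fcrla) were above 5 on the pDC arrays alone, so the filter fixed their direction. Leaving out one array ended the call for Cd72 (adjusted p = 0.0521 without cDC replicate 1 and 0.058 without pDC replicate 1).

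Signalling proteins that act below antigen receptors were not uniformly on the pDC side. Of 40 tested (45 measured), 7 were higher and 9 lower in cDC. Sla2, an adaptor that dampens the T cell receptor, had 2.25 and 2.25 in cDC, against 8.58 and 7.75 in pDC (difference -5.91, SE 0.27, adjusted p = 2.56e-05). The RAS activators parted company: Rasgrp2 had 5.18 and 5.38 in cDC, against 8.96 and 9.52 in pDC (difference -3.96, SE 0.30, adjusted p = 0.000182) and Rasgrp3 had 7.63 and 8.23 in cDC, against 3.73 and 2.64 in pDC (difference 4.75, SE 0.37, adjusted p = 0.000216). One was higher in pDC and the other higher in cDC by more than 4 units. Ptpn22, a phosphatase that restrains antigen receptor signals, had 9.56 and 9.50 in cDC, against 4.72 and 5.40 in pDC (difference 4.47, SE 0.26, adjusted p = 5.29e-05), and the adaptor Lcp2 (SLP-76) had 8.47 and 7.74 in cDC, against 5.45 and 5.57 in pDC. No group overlapped in these genes. Sla2 was above 5 on the pDC arrays alone and Rasgrp3 on the cDC arrays alone, so the filter fixed their direction.

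Cytokine receptors were called in both directions, more often higher in cDC. Of 35 tested (50 measured), 16 were higher and 7 lower in cDC. Kit, the receptor of stem cell factor, had 11.31 and 10.89 in cDC, against 5.75 and 6.17 in pDC (difference 5.14, SE 0.27, adjusted p = 3.80e-05). Its CDP level was 4.75 and 5.32, so the cDC arrays stood above both. The chains of the IL-18 receptor moved together, with Il18r1 at 8.25 and 7.69 in cDC, against 2.72 and 2.66 in pDC (difference 5.28, SE 0.21, adjusted p = 1.58e-05) and Il18rap at 9.41 and 8.14 in cDC, against 3.70 and 3.70 in pDC (difference 5.08, SE 0.42, adjusted p = 0.000276). Il18r1 was above 5 on the cDC arrays alone, so the filter fixed its direction. Il1r2, a decoy receptor of IL-1, had 11.05 and 10.96 in cDC, against 5.05 and 7.19 in pDC. Higher in pDC were Lifr, the receptor of LIF, with 8.83 and 9.28 in cDC, against 11.93 and 12.06 in pDC (difference -2.94, SE 0.21, adjusted p = 0.000134), and Csf2rb2, the β chain that serves IL-3, with 9.55 and 9.66 in cDC, against 12.16 and 11.79 in pDC (difference -2.37, SE 0.30, adjusted p = 0.00164). The shared β chain Csf2rb had 11.40 and 11.44 in cDC, against 11.99 and 11.80 in pDC and was not called (adjusted p = 0.177). Csf1r, the receptor of M-CSF, had 10.64 and 11.59 in cDC, against 7.63 and 10.48 in pDC and was not called (adjusted p = 0.123), with pDC replicate 2 almost 3 units above pDC replicate 1. Leave-one-out fits called higher 9 without cDC replicate 1, 10 without cDC replicate 2 and 10 without pDC replicate 1. Under other settings the counts were 8 higher with no filter on low values. Single arrays decided the call of Il1r2 (adjusted p = 0.0732 without cDC replicate 1, 0.065 without cDC replicate 2 and 0.084 without pDC replicate 1).

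Most interferon-stimulated genes differed between the replicates of each group. Of 36 tested (40 measured), 5 were higher and 2 lower in cDC, a called share of 19.4% against 25.5% of all genes. That gap between replicates is part of the spread in the test. With the replicate number added to the fit as a block, 7 were higher and 2 lower. Rsad2 (viperin) and the next pair of genes were chosen after their values were seen. Rsad2 had 10.68 and 6.07 in cDC, against 10.03 and 5.03 in pDC (adjusted p = 0.792). Usp18 had 12.05 and 8.39 in cDC, against 12.12 and 8.13 in pDC, and Oasl2 had 11.24 and 6.49 in cDC, against 10.85 and 5.70 in pDC. In each, replicate 1 was the higher array of both groups by about 4 to 5 log2 units. At each replicate number Rsad2 and Oasl2 were higher in cDC, while Usp18 was higher in cDC only on replicate 2. Of the members called, 3 are antiviral membrane proteins of the IFITM family. Ifitm1 had 13.78 and 13.72 in cDC, against 7.44 and 8.12 in pDC (difference 5.97, SE 0.26, adjusted p = 2.48e-05), Ifitm2 had 12.87 and 12.85 in cDC, against 6.49 and 8.20 in pDC (difference 5.52, SE 0.49, adjusted p = 0.000378) and Ifitm6 had 12.28 and 12.09 in cDC, against 4.26 and 5.50 in pDC (difference 7.31, SE 0.51, adjusted p = 0.000132). They were close to level between the replicates of cDC. In CDP, Ifitm1 stood at 13.92 and 13.79, as high as in cDC. Gbp2, a guanylate-binding protein, had 10.90 and 8.75 in cDC, against 4.33 and 3.67 in pDC (difference 5.83, SE 0.68, adjusted p = 0.00112). Bst2, a tetherin and pDC marker, had 11.98 and 10.76 in cDC, against 14.41 and 14.21 in pDC (difference -2.94, SE 0.48, adjusted p = 0.00491). The counts were 9 without cDC replicate 2 for higher and 1 without cDC replicate 2, 1 without pDC replicate 1 and 1 without pDC replicate 2 for lower.

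**Figure D5:**
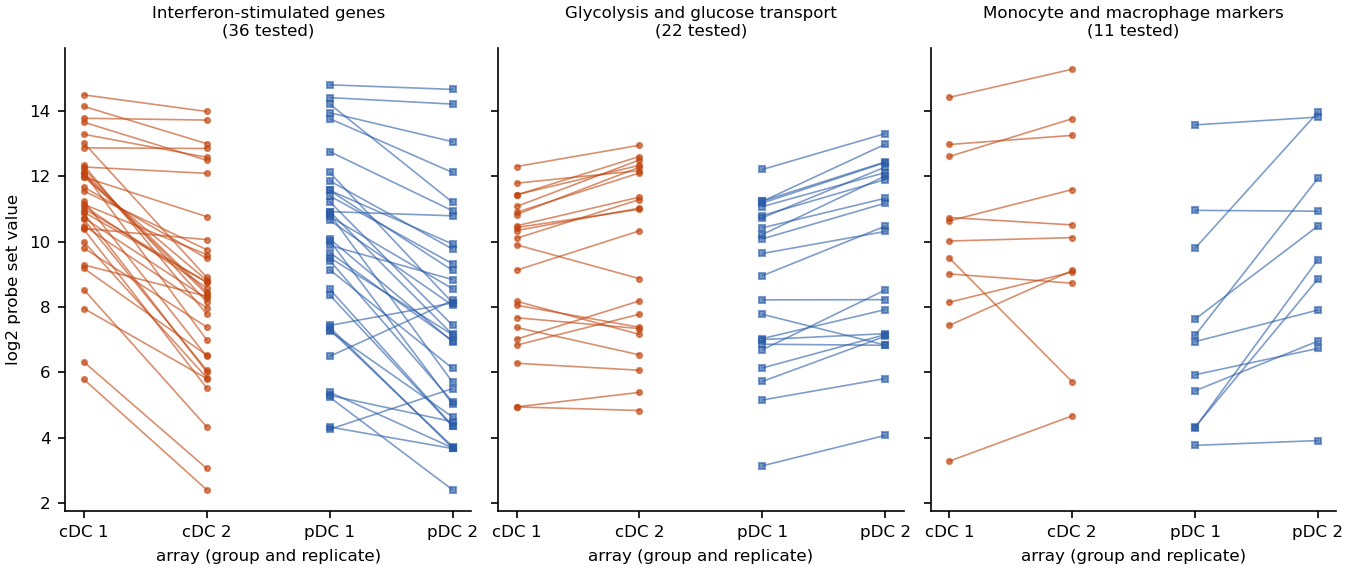
Log2 value on each of the 2 cDC and 2 pDC arrays (horizontal axis) for tested interferon-stimulated genes, glycolysis genes, and monocyte and macrophage markers, with 1 line per gene joining the arrays of a group. Interferon-stimulated lines drop towards replicate 2 in both groups, by more than 1 for 29 of 36 genes in cDC and 27 of 36 in pDC, and most macrophage markers have their higher pDC value on replicate 2.

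Genes of the secretory path were lower in cDC or not called. Of 59 genes of endoplasmic reticulum translocation, folding and the unfolded protein response tested (60 measured), 0 were higher and 22 lower in cDC, with a median difference of -0.58. Their called share was 37.3%, against 25.5% of all genes. Sec24d, a coat protein of vesicles that leave this compartment, had 6.69 and 6.81 in cDC, against 10.28 and 9.61 in pDC (difference -3.20, SE 0.28, adjusted p = 0.000351). Sil1, the exchange factor of the chaperone BiP, had 7.73 and 7.94 in cDC, against 10.08 and 9.85 in pDC (difference -2.13, SE 0.17, adjusted p = 0.000251). Ern1, the sensor IRE1α that splices Xbp1, had 8.42 and 8.78 in cDC, against 10.14 and 9.97 in pDC (difference -1.45, SE 0.21, adjusted p = 0.00258), and Hspa13, a chaperone, had 9.06 and 9.35 in cDC, against 10.65 and 10.59 in pDC (difference -1.41, SE 0.20, adjusted p = 0.00247). The 4 were lower on both cDC arrays by factors of 9.17-fold, 4.36-fold, 2.74-fold and 2.66-fold. Other probe sets above 5 gave -2.45 to 0.09 for Ern1 and -1.81 to -0.01 for Hspa13. The number called lower was 14 without cDC replicate 1, 13 without cDC replicate 2, 9 without pDC replicate 1 and 13 without pDC replicate 2, and 1 member was called higher without cDC replicate 2. Processed otherwise, the data gave 12 lower with no filter on low values.

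One respiratory chain subunit stood alone. Of 18 tested (23 measured), 0 were higher and 1 was lower in cDC, and that one was Cox6a2, the heart and muscle form of a cytochrome oxidase subunit. Cox6a2 had 4.62 and 5.09 in cDC, against 12.21 and 11.98 in pDC (difference -7.24, SE 0.62, adjusted p = 0.000309). Both cDC arrays were near 5, while CDP stood at 12.24 and 10.95, close to pDC. The widespread form Cox6a1 had 13.91 and 13.98 in cDC, against 13.96 and 13.85 in pDC (adjusted p = 0.893), with overlapping groups. Of the other oxidase subunits, Cox4i1 had 13.25 and 13.44 in cDC, against 13.82 and 13.64 in pDC and Cox5a 13.79 and 13.80 in cDC, against 13.57 and 13.31 in pDC, and neither was called.

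Of 22 glycolysis genes tested (26 measured), 2 were higher and 1 lower in cDC, a called share of 13.6% against 25.5% of all genes. Aldoa, aldolase, had 10.90 and 12.10 in cDC, against 10.73 and 12.28 in pDC (adjusted p = 0.999), and the glucose transporter Slc2a1 had 11.08 and 12.50 in cDC, against 11.18 and 12.42 in pDC (adjusted p = 0.994). Replicate 2 was the higher array of each group for both genes. Pfkfb3, which makes an activator of phosphofructokinase, had 9.90 and 8.87 in cDC, against 6.13 and 7.15 in pDC (difference 2.74, SE 0.42, adjusted p = 0.00354). Its cDC arrays were 6.69-fold higher. Without single arrays, counts were 1 without cDC replicate 1, 1 without cDC replicate 2 and 1 without pDC replicate 1 for higher and 0 without cDC replicate 1, 0 without cDC replicate 2, 0 without pDC replicate 1 and 0 without pDC replicate 2 for lower.

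Genes of sterol and fatty acid synthesis were called mostly lower in cDC. Of 39 tested (40 measured), 1 was higher and 14 were lower in cDC, with a median difference of -1.15. This makes 38.5% called, against 25.5% of all genes. Apoe, 1 of those lower, was above 5 on the pDC arrays alone, so the filter fixed its direction. Npc1, which moves cholesterol out of lysosomes, had 7.79 and 8.28 in cDC, against 11.10 and 11.41 in pDC (difference -3.22, SE 0.49, adjusted p = 0.00347). The synthesis enzymes Dhcr7 and Hsd17b7 had 5.58 and 5.34 in cDC, against 7.95 and 7.85 in pDC and 6.33 and 6.38 in cDC, against 8.83 and 8.26 in pDC. In these enzymes the cDC arrays lay within 1 unit of each other and at least 1.5 units under pDC. Cyp27a1, which turns cholesterol into 27-hydroxycholesterol, was the member called higher, with 8.76 and 9.17 in cDC, against 6.17 and 6.15 in pDC (difference 2.81, SE 0.32, adjusted p = 0.000999). Leave-one-out counts were 2 without pDC replicate 2 for higher and 6 without cDC replicate 1, 6 without cDC replicate 2 and 6 without pDC replicate 1 for lower. The alternatives gave 3 lower with no filter on low values. With one array left out, the call was lost for Dhcr7 (adjusted p = 0.119 without cDC replicate 1, 0.144 without cDC replicate 2, 0.141 without pDC replicate 1 and 0.117 without pDC replicate 2) and Hsd17b7 (adjusted p = 0.0581 without cDC replicate 1, 0.0508 without cDC replicate 2 and 0.0683 without pDC replicate 1).

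Enzymes of lipid mediators, amines and pyrimidines were fewer but divided. Of 17 tested (42 measured), 5 were higher and 3 lower in cDC. Hpgds, prostaglandin D synthase of blood cells, had 8.23 and 6.31 in cDC, against 3.57 and 3.18 in pDC (difference 3.89, SE 0.63, adjusted p = 0.00452), and Tbxas1, thromboxane synthase, had 7.37 and 8.40 in cDC, against 4.57 and 4.72 in pDC (difference 3.24, SE 0.39, adjusted p = 0.00129). Hdc, which makes histamine, had 6.29 and 5.02 in cDC, against 3.35 and 3.21 in pDC (difference 2.37, SE 0.42, adjusted p = 0.00691). All pDC arrays of these enzymes were under 5. Hpgds was above 5 on the cDC arrays alone, so the filter fixed its direction. Upb1, an enzyme of pyrimidine breakdown and a pDC marker, had 6.15 and 7.03 in cDC, against 12.19 and 11.84 in pDC (difference -5.42, SE 0.31, adjusted p = 5.59e-05), and Pla2g15, a lysosomal phospholipase, had 4.52 and 5.01 in cDC, against 6.19 and 6.20 in pDC. Members called higher numbered 2 without cDC replicate 1 and 3 without pDC replicate 1. Other processing gave 3 higher with a limit of 7 in the filter and with values under 5 raised to 5.

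Amino acid transport and synthesis had no single direction. Of 31 tested (35 measured), 6 were higher and 4 lower in cDC, a called share of 32.3% against 25.5% of all genes. Phgdh, the first enzyme of serine synthesis, had 7.32 and 6.86 in cDC, against 9.30 and 9.53 in pDC (difference -2.32, SE 0.22, adjusted p = 0.000438), and CDP had 12.38 and 12.50. Slc7a5, a carrier of large neutral amino acids, had 6.54 and 5.80 in cDC, against 8.11 and 8.06 in pDC (difference -1.92, SE 0.26, adjusted p = 0.00229) with 10.74 and 10.55 in CDP, and the glutamine carrier Slc38a1 had 10.54 and 10.61 in cDC, against 12.14 and 12.03 in pDC (difference -1.51, SE 0.22, adjusted p = 0.00307). Both subsets were thus under CDP for Phgdh and Slc7a5. Higher in cDC were Gars, glycyl-tRNA synthetase, with 10.25 and 10.02 in cDC, against 8.97 and 8.85 in pDC (difference 1.22, SE 0.17, adjusted p = 0.00217), and Slc1a4, a carrier of neutral amino acids, with 5.53 and 5.53 in cDC, against 4.38 and 4.35 in pDC. Single arrays moved the count called higher to 2 without cDC replicate 1 and 2 without pDC replicate 2. Counts also moved to 3 higher on the 4 arrays alone and with the mean of all probe sets and 2 higher with no filter on low values.

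Pumps and carriers of the membrane were called in both directions. Of 38 tested (52 measured), 12 were higher and 10 lower in cDC. Atp1b1, the β chain of the sodium pump, had 7.76 and 9.01 in cDC, against 13.07 and 13.04 in pDC (difference -4.67, SE 0.37, adjusted p = 0.000226). Slc41a2, a magnesium carrier, had 5.95 and 6.30 in cDC, against 10.87 and 10.52 in pDC (difference -4.57, SE 0.20, adjusted p = 2.35e-05), and Slco4a1, an organic anion carrier, had 8.03 and 8.60 in cDC, against 12.91 and 12.60 in pDC (difference -4.44, SE 0.26, adjusted p = 6.22e-05). Slc37a2, a sugar phosphate carrier, had 3.11 and 3.25 in cDC, against 6.92 and 6.75 in pDC. These 4 were lower on both cDC arrays. Slc37a2 was above 5 on the pDC arrays alone, so the filter fixed its direction. Atp8b4, a lipid flippase, had 10.77 and 10.78 in cDC, against 5.01 and 5.24 in pDC (difference 5.65, SE 0.22, adjusted p = 1.58e-05), with 11.27 and 10.71 in CDP. Tmem176a and Tmem176b, neighbouring channels of chromosome 6, had 11.31 and 10.60 in cDC, against 6.11 and 6.94 in pDC and 12.72 and 12.44 in cDC, against 8.19 and 8.95 in pDC. The flippase and both channels were higher on each cDC array.

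Genes of vesicle traffic were called in both directions. Of 45 tested (54 measured), 12 were higher and 9 lower in cDC, a called share of 46.7% against 25.5% of all genes. Pacsin1, an adaptor of endocytosis known from neurons and a pDC marker, had 4.41 and 5.14 in cDC, against 9.28 and 8.74 in pDC (difference -4.24, SE 0.30, adjusted p = 0.000132). Rab6b and Rab33b, GTPases of the Golgi, had 4.33 and 6.09 in cDC, against 8.43 and 9.16 in pDC and 9.13 and 9.44 in cDC, against 12.21 and 12.02 in pDC, and Snx18, a sorting nexin, had 8.03 and 8.47 in cDC, against 11.49 and 11.70 in pDC (difference -3.35, SE 0.23, adjusted p = 0.000124). The 4 genes were lower on both cDC arrays. Rab32, a GTPase of lysosome-related organelles, had 10.86 and 11.29 in cDC, against 5.45 and 6.75 in pDC (difference 4.98, SE 0.45, adjusted p = 0.000383), and Rab31 had 7.42 and 7.65 in cDC, against 2.74 and 4.25 in pDC (difference 4.04, SE 0.45, adjusted p = 0.000912). The SNARE proteins Stx3 and Stx11 had 7.68 and 9.12 in cDC, against 4.27 and 5.48 in pDC and 8.85 and 8.28 in cDC, against 6.20 and 4.89 in pDC. Rab32, Rab31 and both SNARE proteins were higher on each cDC array. In other settings there were 5 lower on the 4 arrays alone and with no filter on low values.

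Guidance receptors and the Notch pathway were split evenly, with 6 of 18 tested (42 measured) higher and 6 lower in cDC. Notch1 had 5.90 and 7.36 in cDC, against 10.56 and 10.72 in pDC (difference -4.01, SE 0.43, adjusted p = 0.000783), and Dtx4, a ubiquitin ligase of the pathway, had 5.15 and 6.08 in cDC, against 8.20 and 8.50 in pDC (difference -2.73, SE 0.31, adjusted p = 0.00098). Lfng, the fringe enzyme that tunes Notch to its ligands, had 7.48 and 7.50 in cDC, against 4.12 and 4.92 in pDC (difference 2.97, SE 0.34, adjusted p = 0.001). The receptor and the fringe enzyme thus lay on opposite sides. The class 4 semaphorins also parted, with Sema4b at 5.06 and 5.85 in cDC, against 9.73 and 9.68 in pDC (difference -4.25, SE 0.38, adjusted p = 0.000383) and Sema4a at 10.06 and 10.36 in cDC, against 7.25 and 7.48 in pDC (difference 2.84, SE 0.21, adjusted p = 0.000149). Epha2, an ephrin receptor, had 3.70 and 3.65 in cDC, against 7.31 and 7.58 in pDC, and its cDC arrays were under 5. This gene was above 5 on the pDC arrays alone, so the filter fixed its direction. The count of higher members became 2 without cDC replicate 1, 3 without cDC replicate 2, 3 without pDC replicate 1 and 3 without pDC replicate 2. A change of processing left 2 higher with no filter on low values.

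Members of the TGF-β pathway, the factor that the wider study applied to CDP, were called in both directions. Of 23 tested (30 measured), 8 were higher and 2 lower in cDC, a called share of 43.5% against 25.5% of all genes. The type I receptor Tgfbr1 had 8.45 and 8.57 in cDC, against 11.38 and 11.56 in pDC (difference -2.96, SE 0.31, adjusted p = 0.000666), whereas Acvrl1, the type I receptor ALK1, had 5.68 and 5.43 in cDC, against 2.26 and 2.26 in pDC (difference 3.29, SE 0.17, adjusted p = 3.60e-05). Acvrl1 was above 5 on the cDC arrays alone, so the filter fixed its direction. The type II receptor Tgfbr2 had 10.11 and 9.70 in cDC, against 10.31 and 10.22 in pDC and was not called (adjusted p = 0.407). Pmepa1, a target that restrains the pathway, had 6.08 and 6.86 in cDC, against 10.04 and 9.42 in pDC (difference -3.26, SE 0.34, adjusted p = 0.000682). Tgfbi, a secreted target gene, had 10.76 and 11.56 in cDC, against 2.59 and 6.05 in pDC (difference 6.84, SE 1.06, adjusted p = 0.00383), with pDC replicate 2 more than 3 units above replicate 1 and CDP at 12.99 and 11.74. Pmepa1 and Tgfbi thus ran in opposite directions. Nrros, which holds latent TGF-β on myeloid cells, had 10.74 and 10.39 in cDC, against 9.18 and 9.27 in pDC, and the integrin chain Itgav, which activates it, had 10.13 and 10.07 in cDC, against 8.83 and 9.21 in pDC. With one array dropped, members called higher numbered 2 without cDC replicate 1, 5 without cDC replicate 2 and 3 without pDC replicate 1. Under other settings the counts were 3 higher with no filter on low values and with the mean of all probe sets.

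Replication genes were higher in cDC or not called. Of 49 genes of DNA replication and mitosis tested (49 measured), 21 were higher and 0 lower, with a median difference of 0.83. This makes 42.9% called, against 25.5% of all genes. Cdt1, which licenses origins, had 11.48 and 11.37 in cDC, against 9.20 and 9.73 in pDC (difference 1.96, SE 0.23, adjusted p = 0.00106), and Mcm10 had 7.31 and 6.94 in cDC, against 5.16 and 5.24 in pDC (difference 1.92, SE 0.27, adjusted p = 0.00259). Pola1, the primase-linked polymerase, had 9.06 and 8.82 in cDC, against 6.91 and 7.53 in pDC, and E2f8, an E2F repressor, had 9.49 and 9.35 in cDC, against 7.40 and 8.15 in pDC. CDP were above both subsets for all 4, with Cdt1 at 12.90 and 13.23 and Mcm10 at 8.50 and 9.03. Leave-one-out fits called higher 8 without cDC replicate 1 and 9 without pDC replicate 1. Processed otherwise, the data gave 12 higher with no filter on low values.

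Cell cycle regulators and ribosome genes gave fewer calls. Of 23 D cyclins, CDKs and inhibitors tested (27 measured), 4 were higher and 0 lower in cDC. Cdk14, a cyclin Y-dependent kinase, had 10.51 and 10.87 in cDC, against 7.72 and 7.36 in pDC (difference 3.15, SE 0.22, adjusted p = 0.000132), and E2f2 had 8.53 and 8.54 in cDC, against 6.11 and 6.34 in pDC (difference 2.30, SE 0.22, adjusted p = 0.000445). Of 37 MYC network and ribosome genes (39 measured), 6 were higher and 0 lower in cDC, with Polr1a, a subunit of RNA polymerase I, at 6.34 and 6.54 in cDC, against 4.65 and 4.20 in pDC and Wdr12, a ribosome assembly factor, at 7.98 and 7.66 in cDC, against 5.82 and 6.53 in pDC. The shares called were 17.4% and 16.2%, both under that of all genes. The number of cyclins and CDKs called higher was 2 without cDC replicate 1 and 2 without pDC replicate 1. The alternatives gave 2 cyclins and CDKs higher with no filter on low values and with the mean of all probe sets and 3 MYC network and ribosome genes higher with no filter on low values.

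Genes of the BCL2 family and of apoptosis, which include promoters of cell death such as Bmf, were called mainly on the cDC side. Of 24 tested (30 measured), 7 were higher and 2 lower, a called share of 37.5% against 25.5% of all genes. Bmf, a pro-apoptotic BH3 protein, had 10.38 and 10.29 in cDC, against 6.73 and 7.11 in pDC (difference 3.42, SE 0.27, adjusted p = 0.000209). The serpins Serpinb9, which blocks granzyme B, and Serpinb6b had 9.29 and 8.32 in cDC, against 6.17 and 4.23 in pDC and 9.48 and 8.93 in cDC, against 6.25 and 4.90 in pDC. Both serpins were higher on each cDC array. Bcl2 had 8.60 and 8.69 in cDC, against 8.55 and 8.76 in pDC (adjusted p = 0.983), with overlapping groups, and Pmaip1 (Noxa) had 12.99 and 12.08 in cDC, against 10.23 and 10.61 in pDC (difference 2.12, SE 0.37, adjusted p = 0.00602). Bcl2l2 had 5.86 and 6.24 in cDC, against 7.15 and 7.90 in pDC and Dffb 7.37 and 7.53 in cDC, against 8.56 and 8.33 in pDC, and the number called lower was 0 without cDC replicate 1, 1 without cDC replicate 2, 1 without pDC replicate 1 and 0 without pDC replicate 2. Other processing gave 2 higher with no filter on low values. The call did not hold without one array for Bcl2l2 (adjusted p = 0.0749 without cDC replicate 1 and 0.0525 without pDC replicate 2) and Dffb (adjusted p = 0.109 without cDC replicate 1, 0.0668 without cDC replicate 2, 0.117 without pDC replicate 1 and 0.0549 without pDC replicate 2).

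Stress-responsive genes, which respond to handling as well as to activation, had 11 of 28 tested (36 measured) higher in cDC and 0 lower. Their called share was 39.3%, against 25.5% of all genes. Junb had 7.69 and 7.80 in cDC, against 4.22 and 5.08 in pDC (difference 3.09, SE 0.28, adjusted p = 0.000386) and Ier3 had 10.12 and 10.41 in cDC, against 6.51 and 7.20 in pDC (difference 3.41, SE 0.42, adjusted p = 0.00144). Dusp1, a MAP kinase phosphatase, had 9.57 and 10.22 in cDC, against 5.35 and 6.58 in pDC. All 3 were higher on each cDC array, and the labels give no handling times. The number called higher was 7 without cDC replicate 2 and 7 without pDC replicate 1. Counts also moved to 6 higher with no filter on low values. Leaving out one array ended the call for Dusp1 (adjusted p = 0.0878 without cDC replicate 1, 0.127 without cDC replicate 2, 0.144 without pDC replicate 1 and 0.0569 without pDC replicate 2).

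Markers of other cell types were read as a check on each gene group. The summed log2 level of 16 monocyte and macrophage markers was 121 to 123 in cDC and 91.1 to 119 in pDC, so the pDC arrays differed by more than 27 units. Lyz2 had 12.61 and 13.76 in cDC, against 7.13 and 11.94 in pDC, Adgre1 (F4/80) had 10.02 and 10.12 in cDC, against 4.32 and 8.86 in pDC and C1qb had 7.44 and 9.12 in cDC, against 4.30 and 9.45 in pDC. In all 3, pDC replicate 2 was far above pDC replicate 1, and for C1qb it was above both cDC arrays. Of 11 tested, 2 were called higher and 1 lower in cDC, and the counts were 1 without cDC replicate 1, 1 without pDC replicate 1 and 6 without pDC replicate 2 for higher and 0 without cDC replicate 1, 0 without pDC replicate 1 and 0 without pDC replicate 2 for lower. For Cx3cr1, the fractalkine receptor, the values were 9.01 and 8.73 in cDC, against 5.93 and 6.73 in pDC (difference 2.54, SE 0.34, adjusted p = 0.00206). Apoe had 3.28 and 4.67 in cDC, against 5.44 and 6.96 in pDC and Fcgr1 9.50 and 5.71 in cDC, against 3.77 and 3.91 in pDC. Apoe, the member called lower, was above 5 on the pDC arrays alone, so the filter fixed its direction. It was not tested when either pDC array was left out. The share called in this list was 27.3%, near the 25.5% of all genes. C1qa and Marco were at the floor. Single arrays decided the call of Apoe (adjusted p = 0.144 without cDC replicate 1) and Fcgr1 (adjusted p = 0.103 without cDC replicate 1, 0.164 without pDC replicate 1 and 0.139 without pDC replicate 2).

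The 10 mast cell and basophil markers summed to 26.8 to 34.5 in cDC and 23.7 to 24.1 in pDC, through cDC replicate 2. Mcpt8, a basophil protease, had 2.32 and 6.38 in cDC, against 2.25 and 2.76 in pDC, and Cpa3 had 2.25 and 5.23 in cDC, against 2.26 and 2.26 in pDC. Only that array was above 5 for either gene. Of 6 tested, 1 was higher and 0 lower in cDC, and the number called higher was 4 without cDC replicate 1. The 15 granulocyte markers summed to 51.2 to 51.4 in cDC and 47.8 to 48 in pDC, with Elane, S100a8 and Camp under 5 on all 4 arrays. Of 13 tested, 1 was higher and 0 lower in cDC. That one, Mmp8, had 4.20 and 4.22 in cDC, against 2.25 and 2.27 in pDC, under 5 throughout, and the count was 0 without cDC replicate 1, 0 without cDC replicate 2, 0 without pDC replicate 1 and 0 without pDC replicate 2. The 11 B cell markers summed to 40.9 to 43.8 in cDC and 37.3 to 38.9 in pDC, with Cd79a, Pax5 and Ebf1 at the floor. The 12 T and NK cell markers summed to 39.99 to 41.8 in cDC and 40.4 to 41.2 in pDC, with Cd3e, Cd3d and Cd3g at the floor. The 10 erythroid and megakaryocyte markers summed to 26.2 to 27.7 in cDC and 24.5 to 28.9 in pDC, with Hba-a1 and Klf1 at the floor. None of the last 3 lists had a member called, though 1 erythroid and megakaryocyte marker was higher without pDC replicate 2. The part of macrophages, mast cells or basophils in the differences between cDC and pDC was not tested. With one array left out, the call was lost for Mmp8 (adjusted p = 0.0757 without cDC replicate 1, 0.074 without cDC replicate 2, 0.0782 without pDC replicate 1 and 0.0669 without pDC replicate 2).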

How the data were processed

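Gene expression was read on Affymetrix mouse arrays of one platform, and the deposited series table gives 1 log2 value per probe set and array, made by the authors with GCRMA per the submitters' processing notes (version not given in the sources used here). Values are relative and share the platform's floor, so levels of different genes are not comparable. From these log2 values, 34945 of 45101 probe sets had 1 gene symbol, 932 had several and 9160 had none (64 were controls). Each of 18193 genes was read from its brightest probe set by the average of all 20 arrays, and 9010 genes had several to choose from. Of the called genes, 966 had another probe set above 5, and 3 of these differed in the opposite direction by more than 1. Sizes also varied between probe sets. Other probe sets gave smaller differences for Fscn1 (2.17), Hpgd (2.90), Il12b (1.78), Tspan33 (2.27 to 3.72), Notch1 (-1.92) and Slamf6 (-1.64), among others. For some genes they gave larger ones, such as Traf1 (6.72) and Zbtb46 (5.72). limma 3.58.1 in R 4.3.3 fitted 1 mean per group on 8 arrays (cDC, pDC, CDP and MPP, 2 each, 4 residual degrees of freedom) to genes above 5 on at least 2 arrays, without trend or robust options, and p-values were two-sided and adjusted by Benjamini-Hochberg over 8900 genes. The fit was tested on simulated data. Arrays that share the floor add no spread, which can lower a p-value.

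The genes described are the 15 largest called differences in each direction outside the 2 marker lists, up to 4 called members per direction in each of 47 lists (any member of lists of at most 30 measured genes), and a set of regulators. The 15 largest were taken only among genes whose cDC and pDC arrays did not overlap. The genes described and the lists (1334 of 1447 genes measured) were chosen with earlier results of these data known. Symbols follow the platform annotation. Promoters came from RefSeq's table. Alternatives covered arrays left out, other scalings, filters, probe-set rules and fit options. With 2 arrays per group, precision is limited by their number, and arrays in other labelling series were not analysed here.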

Additional observations from a re-analysis of the deposited data

How the results depend on the processing

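The count of 2273 called genes (1142 higher and 1131 lower in cDC) rested on the filter on low values and on having 2 arrays per group. Without a filter the count was 1483, with 755 higher and 728 lower, and 568 were at least 2-fold higher. Leaving out 1 array gave 1262 to 1600 called genes, 637 to 936 higher, 558 to 752 lower, 602 to 858 at least 2-fold higher and 521 to 689 at least 2-fold lower. The lowest total came without pDC replicate 1. Between 53.8% and 64.3% of the called genes were shared with a leave-one-out fit, whose fewer arrays also leave fewer genes tested. In the other 9 settings the counts ranged over 1903 to 2439 called. None of the 251 named genes that were called changed direction in any setting in which it was tested. Of these, 81 lost their call with no filter on low values, 27 on the 4 arrays alone and 15 with values under 5 raised to 5. Leaving out any 1 array also ended the call of some named genes and left others untested. With no filter, lectins called higher numbered 1, not 7, sterol genes called lower 3, not 14, and cathepsins and cystatins called higher 0, not 3. Counts of up to 2 members moved by at most 2 in settings that kept all 4 arrays. The fit with a replicate block called 2439 genes, 96.5% of the original calls among them, and lost the call of 5 named genes. It called 7 interferon-stimulated genes higher and 2 lower, against 5 and 2 without it, 4 glycolysis genes higher, against 2, and 2 lectins lower, against 0. Same-numbered arrays deviated together in cDC and pDC (r = 0.443 across genes) and in CDP and MPP (0.576), and less so in cDC and CDP (0.108). They did not in the other pairs of groups (0.014 for cDC with MPP and for pDC with MPP, -0.057 for pDC with CDP). The labels do not say that equal numbers mark 1 experiment, and no fit paired the cDC arrays with the pDC arrays. The replicate block is 1 shift per gene common to all 4 groups, so it is no such pairing. Signal near the floor limits what can be said of genes low in both subsets, and 2 arrays per group limit every p-value.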

Other observations

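Genes that were at least 4-fold higher in cDC also leaned within the pDC pair. Among these 428 genes, pDC replicate 2 was above pDC replicate 1 for 68.9%, with a median gap of 0.25 log2 units. The share over all genes tested was 51.7%, with a median gap of 0.01. Among the 335 genes at least 4-fold lower in cDC, cDC replicate 2 was above cDC replicate 1 for 59.1%, with a median gap of 0.08. For cDC the share over all genes tested was 47.5%, with a median gap of -0.008. Both sets were chosen by differences on these same arrays. Over all 8900 genes tested, replicate 1 was higher by more than 1 for 297 genes in cDC and 205 in pDC, and replicate 2 for 172 in cDC and 272 in pDC. In both subsets at once, replicate 1 was the higher array by more than 1 for 95 genes and replicate 2 for 62. Differences of 4 or more log2 units were reached by 140 genes called higher and 75 called lower in cDC.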
